A study of Homo sapiens with 2 samples.

Results

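The C/EBP family comprises basic leucine zipper (bZIP) transcription factors, and 4 of its members or relatives were among the 84 genes of an adipogenesis PCR array run on HepG2 cells, a human hepatoma line. They were Cebpa, Cebpb and Cebpd, which encode C/EBP alpha, beta and delta, and Ddit3, which encodes the stress factor CHOP. They were chosen by symbol, with earlier results of these data known. The control sample was untreated HepG2. The other sample had been given MOES, a water extract made from the seeds of Moringa oleifera, for 72 h. Both samples came from the same line, no other treatment separates them in the labels, and there was 1 sample per group, so no value has a replicate error and no test was made. The title of the treated sample gives 5 mg/mL, whereas the protocol for the array gives 2.5 mg/mL, and the tables do not settle which was used.

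C/EBP proteins bind DNA as dimers that form through the leucine zipper, and all of alpha, beta and delta can pair with each other. In fat cell differentiation, C/EBP beta and delta appear early and C/EBP alpha appears later together with PPAR gamma. In liver, C/EBP alpha is high in quiescent, differentiated hepatocytes, and C/EBP beta and delta are induced in the acute phase response. CHOP is induced by endoplasmic reticulum stress. It pairs with other C/EBP proteins through its zipper but has an altered basic region, so that the pair does not bind the usual C/EBP sites.

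The array measures each transcript as a threshold cycle (Ct), the PCR cycle at which the signal crosses a set level. A Ct that is lower by a whole cycle stands for a doubling of template if amplification is perfect. All 4 genes had a Ct below 35, the highest value in the tables, in both samples. None of their fold changes is therefore a bound set by that highest value. The Ct of Cebpd was 25.47 in control cells and 23 in MOES-treated cells. The Ct of Cebpb was 28.74 in control cells and 32 in MOES-treated cells. Thus Cebpd crossed the threshold earlier after MOES and Cebpb later, and in the plot of Ct by sample the line of Cebpb crosses that of Ddit3. The Ct of Ddit3 was 28.93 in control cells and 29 in MOES-treated cells. The Ct of Cebpa was 31.2 in control cells and 32 in MOES-treated cells. Both Ddit3 and Cebpa moved later by less than a whole cycle.

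**Figure D1:**
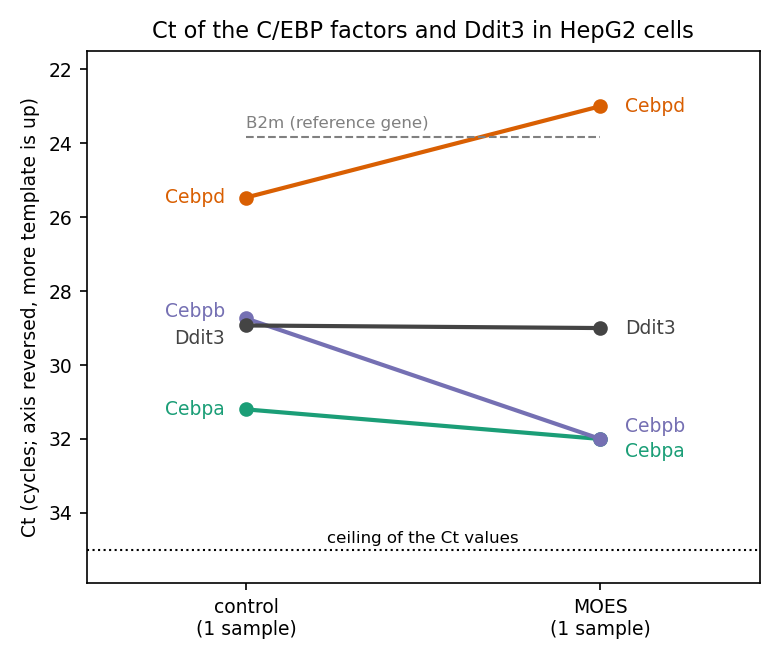
Ct of Cebpa, Cebpb, Cebpd and Ddit3 in control and MOES-treated cells (1 sample each, points joined by lines), on a reversed axis so that more template is higher; the dashed line is the reference gene B2m and the dotted line the ceiling of 35. Cebpd went from 25.47 to 23, earlier than B2m at 23.82, Cebpb went from 28.74 to 32, where it met Cebpa, and Ddit3 stayed between 28.93 and 29.

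To correct for the amount of cDNA, the mean Ct of the reference genes B2m, Gusb and Hsp90ab1 was subtracted, and a level was expressed as 2 to the power of minus this difference. On this scale, a level of 1 equals the mean of the reference genes. The level of Cebpd was 0.681 in control cells and 3.80 in MOES-treated cells, a fold change of 5.58. The level of Cebpb was 0.0706 in control cells and 0.00743 in MOES-treated cells, which is 9.51-fold lower. The level of Cebpa was 0.0128 in control cells and 0.00743 in MOES-treated cells, a fold change of 0.578. The level of Ddit3 was 0.0619 in control cells and 0.0594 in MOES-treated cells, a fold change of 0.959. Thus the early factors of the adipogenic cascade moved in opposite directions, while CHOP and C/EBP alpha lay between the study's limits, which are fold changes above 1.5 and below 0.5.

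A total of 1 of the 4 genes, Cebpd, was above 1.5, where 8.33% of the 84 genes lay. Another 1 of the 4, Cebpb, was below 0.5, where 67.9% of the 84 genes lay. The log2 fold changes were 2.48 for Cebpd, -0.06 for Ddit3, -0.79 for Cebpa and -3.25 for Cebpb. Their median was -0.425, beside a median of -1.775 over all 84 genes. Among the 59 genes measured below 35 in both samples, in the order of fold change from the highest, Cebpd was at place 1, Ddit3 at 10, Cebpa at 19 and Cebpb at 51. Changing the reference shifts these 59 genes equally, so their order holds under any of them. A place among all 84 genes cannot be given, since 6 genes were at 35 in both samples and 19 others have only an upper bound, of which 11 lie above the value of Cebpb and 1 above that of Cebpa. The factors were spread over most of the range of the measured genes. Cebpa, with a fold change of 0.578, lay above the lower limit but was not the gene nearest to it. The nearest genes on either side of 0.5 were Sfrp5 with a fold change of 0.518 and Klf2 with 0.480.

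**Figure D2:**
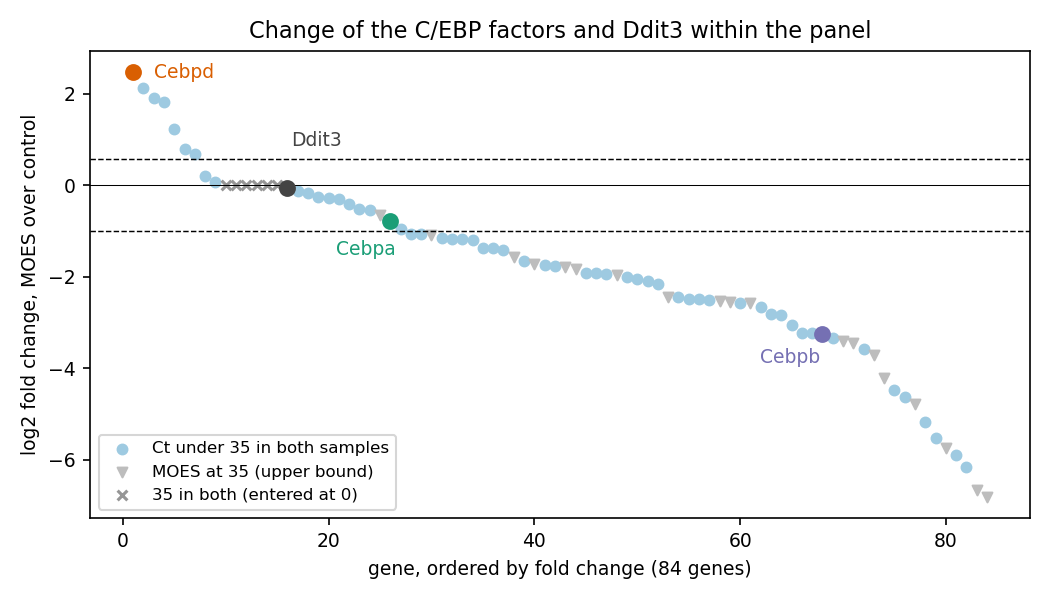
Log2 fold change of the MOES sample over the control for the 84 genes in descending order of the plotted value; coloured points are the 4 factors, triangles are genes at a Ct of 35 in the MOES sample only, whose value is an upper bound, crosses are genes at 35 in both samples, and dashed lines are the limits of 1.5 and 0.5. Cebpd stands first at 2.48, Ddit3 and Cebpa lie between the limits and Cebpb lies below the lower one at -3.25; genes at 35 have no settled place in the order.

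For lack of replicates, the spread of repeat wells was taken from the 3 reverse transcription control (RTC) wells of the control sample, which had an SD of 0.375 cycles. For the difference of a pair of wells this gives an SD of 0.530 cycles, which covers neither biological variation nor early wells. The changes of Cebpd and Cebpb were larger than 2 SD, which is 1.06 cycles, and those of Cebpa and Ddit3 were smaller. All Ct values under 35 of the MOES gene wells were whole numbers, whereas those of the control had decimals. The MOES wells of B2m, Gusb and Hsp90ab1 had decimals too, at 23.82, 25.66 and 25.3. They differed from the control wells by at most 0.02 cycles, less than the SD of 0.375 cycles. Each MOES level thus sets a whole number against reference values with decimals, and the reason for this format was not tested. With the MOES value of each factor 0.5 cycles earlier or later, the fold change of Cebpd was 7.89 or 3.94, and that of Cebpb 0.149 or 0.0743. For Cebpa it was 0.818 or 0.409, the latter below the limit, and for Ddit3 1.36 or 0.678. The Ct of 32 recorded for Cebpa and for Cebpb was shared by 21 genes of the MOES sample, these included.

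The Ct of a factor can be set against that of another without any reference gene. Such a ratio assumes that the assays amplify equally well and give products of like length, since the dye binds more to longer products, and neither is known here. In the control, the order of levels from the highest was Cebpd, Cebpb, Ddit3 and Cebpa. Cebpb and Ddit3 were neighbours that differed by 0.19 cycles, less than the SD between wells, so their order is not settled. The other 5 of the 6 pairs differed by more than 1.06 cycles. In the MOES sample, the order was Cebpd, Ddit3, and then Cebpa and Cebpb, which were level at 32. Cebpb thus went from the level of Ddit3 to 3 cycles later, and Ddit3 took its place.

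The distance between the highest and the lowest factor grew from 5.73 cycles in the control to 9 cycles in the MOES sample. The template of Cebpd was 9.65 times that of Cebpb in the control and 512 times that of Cebpb in MOES-treated cells. This ratio changed 53.1-fold, the largest change among the 6 pairs. The ratio of Cebpd to Cebpa was 53.1 in control cells and 512 in MOES-treated cells. The ratio of Cebpd to Ddit3 was 11.0 in control cells and 64 in MOES-treated cells. Cebpb was 5.50 times Cebpa in the control, and the pair was level in the MOES sample. Of the 6 differences between changes, 5 exceeded 2 SD of such a difference. The exception was Cebpa against Ddit3, whose changes differed by 0.73 cycles.

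Taken as template of equal weight, Cebpd made up 82.4% of the summed level of the 4 genes in control cells and 98.1% in MOES-treated cells. The share of Cebpb was 8.54% in control cells and 0.192% in MOES-treated cells. The share of Ddit3 was 7.49% in control cells and 1.53% in MOES-treated cells, and that of Cebpa 1.55% and 0.192%. The share of Ddit3 was lower although its level was nearly the same in both samples, since the sum was 4.69 times higher after MOES. Without Cebpd, the summed level was 0.145 in control cells and 0.0743 in MOES-treated cells. Among the 84 genes, Cebpd had the 7th lowest Ct in the control and the lowest in the MOES sample. Ddit3 went from place 27 to 13, a move in rank at a nearly constant Ct while most other genes moved later. Cebpb went from place 23 to 27 and Cebpa from 48 to 27, the place shared by all genes at 32.

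**Figure D3:**
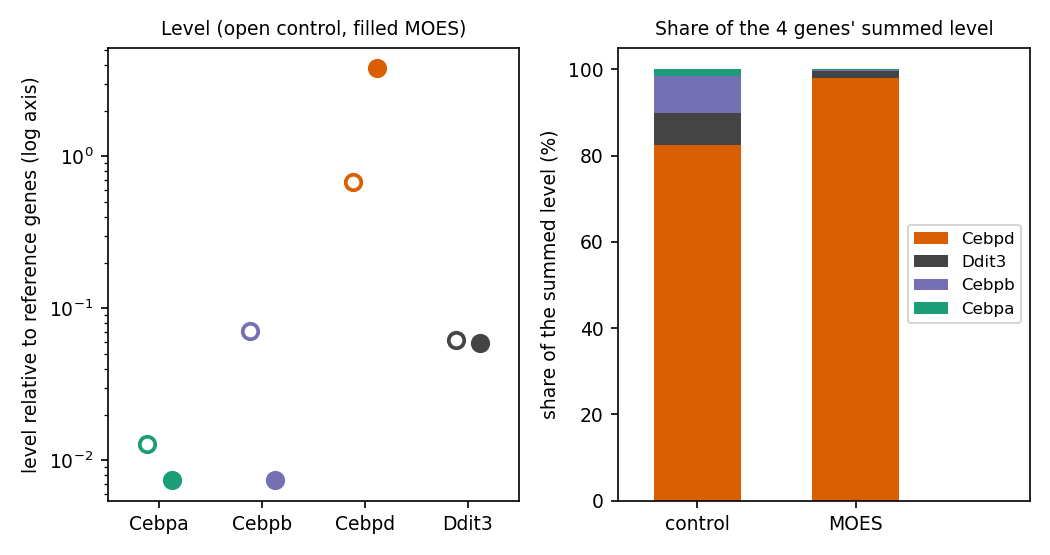
Left, the level of each factor relative to the mean of B2m, Gusb and Hsp90ab1 on a log axis, open circles for the control and filled circles for the MOES sample (1 sample each). Right, each factor's share in percent of the summed level of the 4 genes, where Cebpd takes 82.4% in control cells and 98.1% in MOES-treated cells.

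The sign of Ddit3 and Cebpa depended on the reference genes. Against B2m, Gusb or Hsp90ab1 alone, the log2 fold changes of all 4 factors were within 0.01 of those above. Actb and Gapdh, the other reference genes of the array, both reached 35 after MOES, so that values against them are minimum values. Against the mean of all 5 reference genes, the log2 fold change was at least 3.97 for Cebpd, 1.43 for Ddit3, 0.70 for Cebpa and -1.76 for Cebpb. Against Actb alone it was at least 3.42 for Cebpd, 0.88 for Ddit3, 0.15 for Cebpa and -2.31 for Cebpb. Against the median Ct of the 84 genes it was 3.98 for Cebpd, 1.44 for Ddit3, 0.71 for Cebpa and -1.75 for Cebpb. Cebpd was therefore above 1.5 under all 7 other references. Cebpb was below 0.5 under the 4 of them that are not minimum values. Of these 4, B2m, Gusb and Hsp90ab1 alone are parts of the main reference and repeat its result. Only the median Ct of the 84 genes does not use them. Against all 5 reference genes and against Actb the minimum of Cebpb lay below 0.5. This does not settle on which side of the limit Cebpb was. Against Gapdh alone all 4 factors were higher, Cebpb by at least 3.28 on the log2 scale.

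**Figure D4:**
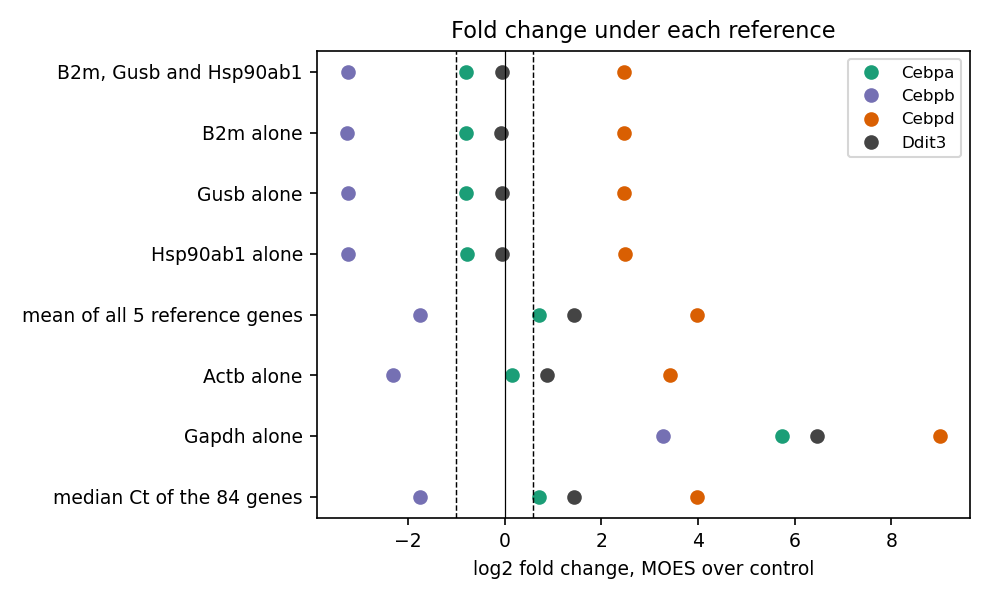
Log2 fold change of each factor, MOES over control, under the reference used and 7 others (rows); dashed lines are the limits of 1.5 and 0.5, and values against a reference with Actb or Gapdh are minimum values. The spacing between the factors is the same in every row, Cebpd lies right of the upper limit throughout, and Cebpb is plotted left of the lower limit except against Gapdh alone.

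The control wells limit what these values show. The RTC wells are meant to track an added RNA through the cDNA step. They were at 31.41, 32.01 and 32.1 in the control and at 35 in the MOES sample. The paper's methods mention no added RNA, so what these wells measured here cannot be told. The SD between wells used above rests on them. The positive PCR control wells were at 35 in both samples, so this control gave no signal below the ceiling. The labels name a human plate, but Gusb and Hsp90ab1 as reference genes and the control name MGDC belong to the manufacturer's mouse plates, and the symbols are in mouse style. The MGDC well, which detects genomic DNA, had a Ct of 29.9 in control cells and 29.56 in MOES-treated cells. Cebpa and Cebpb were both 2.44 cycles later than this well in the MOES sample, whereas in the control Cebpa was 1.3 cycles later and Cebpb 1.16 cycles earlier. Ddit3 was 0.97 cycles earlier than it in the control and 0.56 cycles earlier in the MOES sample, so that it lay within 1 cycle of the genomic DNA well in both. Cebpd was 4.43 cycles earlier than it in the control and 6.56 cycles earlier in the MOES sample. The genes for C/EBP alpha, beta and delta have no introns, so an assay for them cannot be placed across one. The part of genomic DNA, of reverse transcription and of the plate layout in these results was not tested. For the cell type, the panel holds only Agt and Nr0b2 as genes typical of hepatocytes. Agt, angiotensinogen, had a Ct of 33.91 in control cells and 35 in MOES-treated cells, and Nr0b2, the bile acid responsive repressor SHP, had 28.76 and 32. Of 6 adipocyte genes, all had a Ct below 35 in both samples, from 25.1 to 33.89 in the control. Their median Ct in the control was 27.49, earlier than the Ct of Nr0b2 and that of Agt, though the line is a hepatoma. Pparg, the gene of PPAR gamma, had the lowest Ct of the 84 genes in the control, 19.82. The assignment of symbols to wells was not tested.

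All 4 factors lay in row B of the plate, in wells B03, B04, B05 and B08. The other 8 genes of this row had a median log2 fold change of 0, with 2 above 1.5 and 2 below 0.5. The 72 genes of the other rows had a median of -1.945, with 4 above 1.5 and 54 below 0.5. With only genes measured below 35 in both samples, the median was -0.10 over 6 other genes of row B and -1.92 over 49 genes of the other rows. Row B thus held 3 of the 7 genes above 1.5, namely Cebpd, Creb1 and Dio2. Among the genes of this row measured below 35, Cebpd had the highest value and Cebpb the lowest. The part of the plate position was not tested.

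The genes nearest to each factor in log2 fold change, over these 2 samples, differed between factors. For Cebpd they were Acacb, an acetyl-CoA carboxylase that restrains fatty acid oxidation, with 2.14, Lep, leptin, with 1.90 and Creb1 with 1.83. For Cebpb they were Nr0b2 with -3.23, Tcf7l2, a WNT pathway factor, with -3.22 and Irs2, an insulin receptor substrate, with -3.34. Cebpb and Nr0b2 also had nearly the same Ct in the control, 28.74 and 28.76, and both were at 32 in the MOES sample. For Cebpa the nearest were Sfrp5, Klf3 and Klf2, at -0.95, -0.53 and -1.06. For Ddit3 they were Wnt5a, Gata2 and Runx1t1, at -0.13, -0.17 and 0.07.

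A list of 13 genes that regulate or partner C/EBP factors was set beside them. Of these, 8 were below 0.5, 1 was above 1.5 and 4 lay between, with a median log2 fold change of -2.00, beside 67.9% below 0.5, 8.33% above 1.5 and a median of -1.775 over the 84 genes. Creb1, a bZIP factor known to induce Cebpb in differentiating fat cells, had a Ct of 28.82 in control cells and 27 in MOES-treated cells, a fold change of 3.56. Creb1 and Cebpb thus began at nearly the same Ct and moved apart. Jun, the other bZIP factor of the list, had a Ct of 30.2 in control cells and 35 in MOES-treated cells and was at least 27.7-fold lower. Egr2, or Krox20, which acts upstream of Cebpb, went from 28.18 to 35 and was at least 112-fold lower. Tsc22d3, the glucocorticoid-induced zipper protein GILZ, went from 28.32 to 35 and was at least 102-fold lower. Klf4, which acts with Krox20 on Cebpb, had a fold change of 0.697 and lay between the limits. Runx1t1, a corepressor that binds C/EBP proteins, had a Ct of 33.06 in control cells and 33 in MOES-treated cells, a fold change of 1.05.

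A second list held 10 genes with C/EBP binding or dependence known in fat or liver. Of these, 9 were below 0.5 and 1 was above 1.5, with a median log2 fold change of -1.66. Over the whole panel, 67.9% of the genes were below 0.5 and 8.33% above 1.5. Lep had a Ct of 33.89 in control cells and 32 in MOES-treated cells, a fold change of 3.73. Pparg, which sustains the adipogenic program together with C/EBP alpha, went from 19.82 to 25 and was 36.0-fold lower. Adipoq, adiponectin, went from 27.37 to 32 and was 24.6-fold lower. Agt, a liver gene with acute phase control, was at least 2.11-fold lower. Of the list, Slc2a4 and Agt were at 35 in the MOES sample, so their values are bounds. With 1 sample per group, neither list was tested against the rest of the panel.

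**Figure D5:**
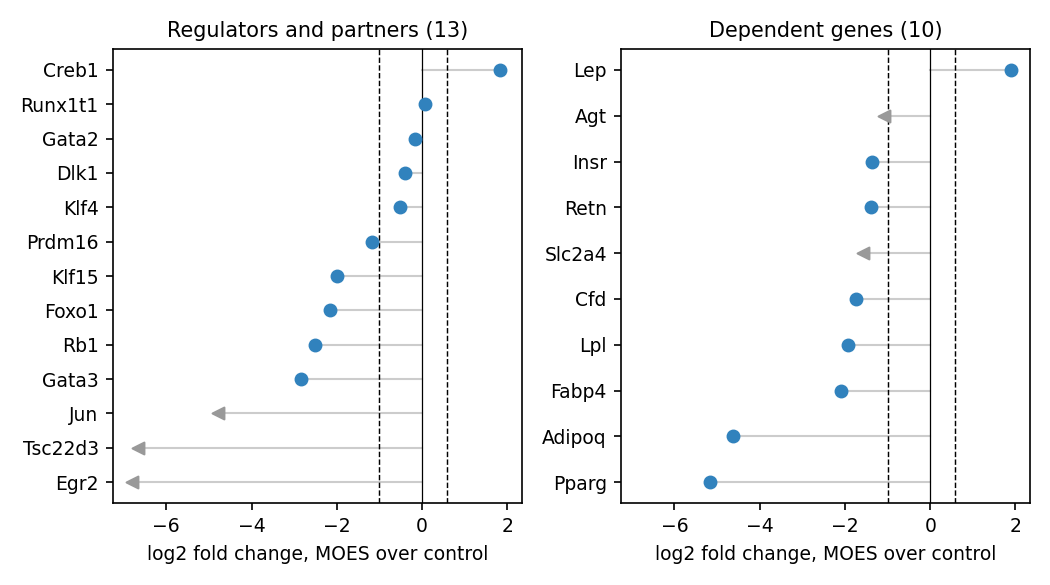
Log2 fold change, MOES over control, of 13 regulators and partners of C/EBP factors (left) and 10 dependent genes (right); circles are genes measured below 35 in both samples, arrowheads are upper bounds with the MOES well at 35, and dashed lines are the limits of 1.5 and 0.5. Creb1 and Lep are the single genes of each list above 1.5, and Egr2 and Pparg are plotted lowest.

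The promoters of 3 of the 4 human genes were looked up in RefSeq (GRCh38.p14) for motifs that link these factors. The motifs were TGACG, the core of the site bound by CREB, the box CCAAT bound by NF-Y, the TATA box as TATAAA, and the C/EBP consensus as TTGCNNAA. Each was searched on both strands of the 250 bases before each start. TGACG occurs in 21.2% of 35116 such windows, CCAAT in 11240 of the 35116, TATAAA in 10.7% and TTGCNNAA in 9.05%. These stretches of 30 bases are shown because Cebpb differed in its change from Cebpa and Ddit3 by more than 2 SD, and because Creb1 and Cebpb moved apart. The changes of Cebpa and Ddit3 differed by 0.73 cycles, less than 2 SD of such a difference. Capitals mark the motif, and the stretches lie at chr20:50190761-50190790 on the plus strand, chr19:33302547-33302576 on the minus strand and chr12:57520585-57520614 on the minus strand, in the order given.
CEBPB: gaggggccggcgTGACGcagcggttgctac
CEBPA: cggcctgccgggTATAAAagctgggccggc
DDIT3: CCAATgccggcgtgccactttctgATTGGt
The TGACG of CEBPB begins 57 bases before an annotated start, and a TATAAA begins 29 bases before the same start. The TATAAA of CEBPA begins 30 bases before its start. CCAAT was in windows of both CEBPB and DDIT3. In CEBPB it begins 245 bases before the start. In DDIT3 it begins 100 bases before the start shown and again, on the other strand, at 76 bases, which for a second annotated start are 97 and 73 bases. TTGCNNAA was in none of the 5 windows of these genes. A match describes the letters of the window, and no binding was measured.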

How the data were processed

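cDNA from total RNA of HepG2 cells was measured with SYBR Green on an adipogenesis PCR array of 96 wells, 84 for genes and 12 for controls. Values came from the array maker's online software. The authors deposited the average Ct per well (treated here as a score with a ceiling of 35), the delta Ct, a log2 scale with reversed sign, and the ratio 2 to the power of minus delta Ct. The deposited standard deviation columns hold no numbers, and the number of wells averaged is not given in the sources used here. A table with the authors' fold changes was not used. Precision is limited by the 1 sample per group, and no depth applies to PCR data.

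Control Group was taken as the control sample, and Group 1, the group the authors' header compares with it, as MOES. Fold changes were computed from Ct with B2m, Gusb and Hsp90ab1 averaged as reference. The resulting delta Ct differed from the deposited delta Ct by at most 0.0057 cycles. Genes at 35 in the MOES sample alone entered medians at their bound, and genes at 35 in both samples entered at 0. The members and gene lists were chosen with earlier results of these data known. Named genes were the 4 factors, the 3 nearest genes to each in log2 fold change, and of each list the 2 highest and 2 lowest, with Creb1 and Jun. Klf4, Dio2 and Slc2a4 lie outside that rule and were chosen after their values were seen. The 4 symbols matched human RefSeq symbols when case was ignored, and 3 of the 4 genes had a promoter window. The alternatives were 7 references, the deposited delta Ct, late wells, rounding and shifts of the MOES wells, and other limits. The fold change code was tested on simulated data. Python 3.11.15, numpy 2.4.6, pandas 2.3.3 and matplotlib 3.10.9 were used.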

Additional observations from a re-analysis of the deposited data

Results flagged for a closer look

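The MGDC well, which tests for genomic DNA and measures no gene of the panel, had a higher signal after MOES than in control cells, by a log2 fold change of 0.35 against the reference genes. The difference was smaller than the SD of 0.530 cycles between a pair of wells.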

How the results depend on the processing

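No paired analysis was possible because there was a single sample of each kind. Of 17 alternatives, the shifts of the MOES gene wells by 1 cycle were chosen after seeing the data. The deposited delta Ct, Ct above 32 set to 32, leaving out wells at 35, and rounding the control Ct changed no count. They moved no log2 fold change of a factor beyond the SD of 0.530 cycles between a pair of wells. With rounding, the change of Cebpb minus that of Cebpd went from -5.73 to -5. The change of Cebpd minus that of Ddit3 went from 2.54 to 2. Both moves were larger than 0.530 cycles but within the wider SD of a difference between 2 changes. No factor had a Ct above 32 in either sample, so the cap at 32 and leaving out wells at 35 could change nothing. The deposited delta Ct differed from the computed values by at most 0.0057 cycles, so it repeats the same calculation. Rounding moved the Ct distance in the control of Cebpb and of Ddit3 from Cebpd to 4 cycles. A reference or a shift of the MOES wells adds the same amount to each factor by construction. Values against references with Actb or Gapdh are minimum values. The count above 1.5 was 2 with Actb alone, 3 with the mean of all 5 reference genes, 3 with the median Ct of the 84 genes, 4 with Gapdh alone and 2 with the MOES wells lowered by 1 cycle. The count below 0.5 was 0 with Gapdh alone, 2 with the MOES wells raised by 0.5 cycle, 3 with them raised by 1 cycle and 2 with limits of 1.5 and its inverse. The median log2 fold change of the factors was 0.515 with Actb alone, 1.069 with all 5 reference genes, 1.075 with the median Ct, 6.105 with Gapdh alone, 0.575 with the MOES wells lowered by 1 cycle and -1.425 with them raised by 1 cycle. Cebpb reversed to 3.28 with Gapdh alone. With the MOES wells raised by 1 cycle, Cebpd had a log2 fold change of 1.48, and with them lowered by 1 cycle, Cebpb had -2.25, both still past their limits.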
